A study of Mus musculus with 18 samples.

Results

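The MEK inhibitor GDC-0623 given alone was set against an agonist antibody to CD40 given alone, in the same tumour model. The arrays titled MEKi (5) and those titled CD40 (4) were taken, 9 of the 18 arrays of the series, each from the whole subcutaneous tumour of a mouse bearing MC38, a mouse colon carcinoma line. MEKi mice received 30 mg/kg GDC-0623 every day with a control IgG, and anti-CD40 mice received the inhibitor's vehicle (MCT) every day with the anti-CD40 antibody on treatment days 3, 5 and 7 and once more on the day before analysis. The remaining groups were given both drugs (MEKi/CD40, 4 arrays) or vehicle with control IgG (control, 5 arrays) and are used only to place both single treatments. All mice were C57BL/6-Ly5.1 animals of 6 to 12 weeks, injected in the flank with MC38 cells in PBS and Matrigel, and all tumours were taken on day 22 after inoculation. The tumours thus came from 1 cultured line placed under the skin, and each array holds tumour cells together with the stroma and leukocytes of 1 piece. The labels do not give the time between the last inhibitor dose and sampling.

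MEK is the kinase that activates ERK, and ERK signalling drives entry into the cell cycle, growth and a set of feedback inhibitors that restrain the same pathway. CD40 is a receptor on dendritic cells, macrophages and B cells. Its ligand on helper T cells, or an agonist antibody, licenses these cells to present antigen, to raise co-stimulatory molecules and to secrete IL-12, a cytokine that drives interferon-gamma production by T and NK cells. The first drug is thus aimed mainly at signalling inside the tumour cell, and the second at the antigen-presenting cells around it.

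Signal was read on a 3′ expression array as 1 log2 value per probe set, with a floor at 2.16. All levels are given on this scale, and values below 3 were taken as background. Differences are MEKi minus anti-CD40 on the log2 scale with the standard error of the model, group values carry the SD, and a probe set was called at an adjusted p under 0.05 (limma, Benjamini-Hochberg over all 45037 probe sets). Of these, 2292 were called (5.09%), 1276 higher in MEKi (2.83%) and 1016 lower (2.26%). A difference of 2-fold or more was met by 256 of the higher and 180 of the lower probe sets. With 1 probe set per gene, 1305 of 18193 genes were called (7.17%; 4.08% higher and 3.09% lower), and among the 10058 genes at log2 5 or more on at least 4 of the 9 arrays 1271 were called (12.6%; 7.21% higher and 5.43% lower). The arrays of both groups did not overlap for 10.4% of all probe sets. The median difference over all probe sets was 0.00. Array medians were 2.72 to 2.81, and array pairs correlated at 0.9949 to 0.9981 within MEKi, at 0.9955 to 0.9983 within anti-CD40 and at 0.9884 to 0.9958 between the groups. The 3′ minus 5′ log2 signal of Actb was 0.38 to 0.41 in MEKi and 0.32 to 0.37 in anti-CD40, and that of Gapdh was -0.23 to -0.19 in MEKi and -0.27 to -0.23 in anti-CD40. The groups did not overlap for Actb, and the part of RNA integrity in the differences was not tested.

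**Figure D1:**
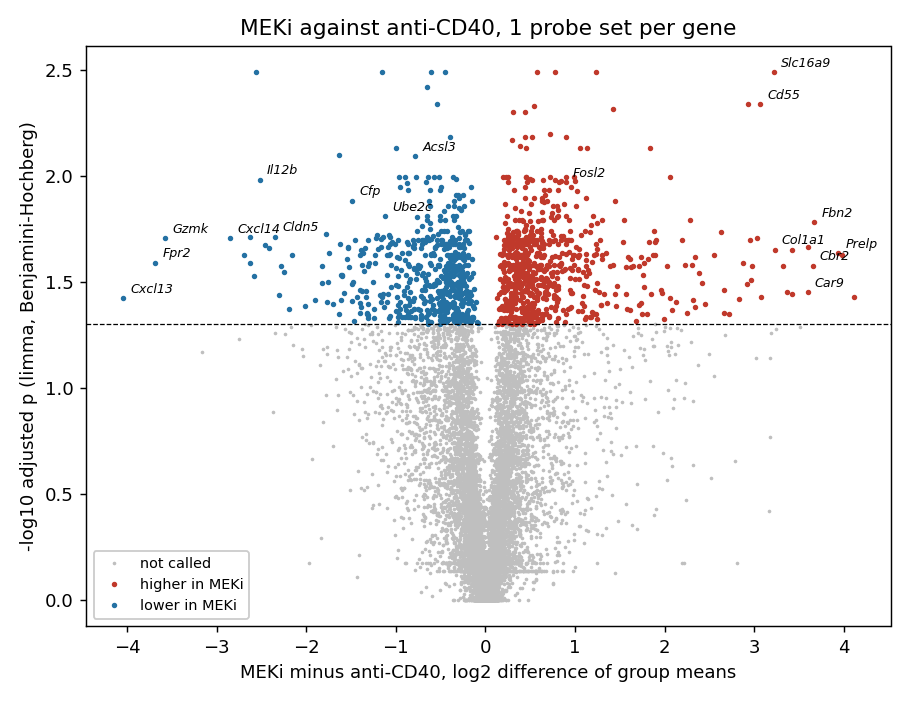
Log2 difference between MEKi and anti-CD40 (horizontal axis) against -log10 of the adjusted p (vertical axis), 1 point per gene, red for genes higher in MEKi and blue for genes lower in MEKi, with a dashed line at an adjusted p of 0.05. Of the labelled genes Slc16a9 and Cd55 lie highest, and Cxcl13, Fpr2 and Gzmk farthest to the left.

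The number in each array title falls into 2 series. Anti-CD40 1 to 4 and MEKi 1 and 2 carry numbers below 7800, and MEKi 3 to 5 carry higher ones, so the higher series holds no anti-CD40 array. The labels do not say what the number stands for. With the series as a term 153 probe sets were called, and of the 92 called genes named here 4 stayed called (Acsl3, Fosl2, Slc16a9 and Cd55). All 92 had the same sign within the lower series, which compares MEKi 1 and 2 with the 4 anti-CD40 arrays. Leaving out single arrays moved the count over all probe sets to 197 without anti-CD40 2, 399 without anti-CD40 3, 1093 without anti-CD40 4, 674 without MEKi 1, 909 without MEKi 2, 1097 without MEKi 3 and 1465 without MEKi 5. Each mouse gave 1 array, so the p-values rest on the spread between mice. That spread also holds differences between tumour pieces and, in MEKi, between the title number series. Of the 92 genes, 6 stayed called in all 9 fits over all probe sets that left out 1 array. A fit on the 18584 probe sets at log2 5 or more on at least 4 arrays, combined with these choices after the data were seen, tested 89 of the 92. Of these, 17 averaged below 5 in their lower group and so entered through the group where they are high. Of the other 72, 69 stayed called without any single array, and 58 with the series term. That fit called 26.6% of its probe sets (4946), 2945 to 4815 of them with 1 array left out and 1939 with the series term. The 72 had all been called in these same arrays, so these counts are description only and not a separate test.

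Control tumours were used to place each difference. Of the 743 genes called higher in MEKi, the control mean lay nearer to anti-CD40 for 685 (92.2%), and of the 562 called lower it lay nearer to anti-CD40 for 484 (86.1%). The control mean lay between both drugs for 492 of the higher and 363 of the lower genes. It lay nearer to MEKi for the remaining 58 higher and 78 lower genes, many of the immune genes named next among the lower ones. No test against control is given, since both drugs share those arrays.

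T cell and killer cell genes were among the largest differences, and all of those called were lower in MEKi. Granzyme K, a serine protease of a subset of memory-like CD8 T cells, read 4.85, 4.84, 4.65, 4.64 and 4.83 in MEKi 1 to 5, against 6.86, 9.54, 8.96 and 7.99 in anti-CD40 1 to 4. The 5 MEKi arrays lay close together and far below the lowest anti-CD40 array, and the 5 control arrays, at 4.85, 4.85, 4.55, 4.65 and 4.64, lay with MEKi. The Gzmk difference was -3.58 ± 0.51, adjusted p = 0.0197, 11.9-fold lower in MEKi. Perforin (Prf1), the pore former that granzymes follow into target cells, read 3.63, 3.72, 4.75, 2.78 and 3.77 in MEKi 1 to 5, against 5.58, 5.37, 5.79 and 6.96 in anti-CD40 1 to 4. Its difference of -2.19 ± 0.46, adjusted p = 0.0425 corresponds to at least 4.44-fold lower signal, since 1 MEKi value was below 3. Gzmb, the granzyme that triggers apoptosis, was lower by a smaller step (7.98 ± 0.45 in MEKi and 9.35 ± 0.35 in anti-CD40; -1.37 ± 0.27, adjusted p = 0.0349). In Gzmb and Prf1 the control arrays ranged widely, at 8.79 ± 1.05 and 4.71 ± 1.20. Of 17 measured cytotoxic genes 3 were called (17.6%, against 7.17% of all genes), all lower in MEKi, and the median difference of the list was -0.69.

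Genes of T cell receptor signalling gave fewer calls. Cd247, the zeta chain of the receptor complex, read 4.34, 4.35, 4.34, 4.75 and 4.64 in MEKi 1 to 5, against 5.22, 6.05, 6.17 and 6.60 in anti-CD40 1 to 4, with no overlap (-1.53 ± 0.27, adjusted p = 0.0268), and was the only called gene of 17 measured T cell genes. That is 5.88% of the list, against 7.17% of all genes. The list median was -0.97, and 16 of the 17 fitted differences were below 0. Cd3d (-1.64, adjusted p = 0.108) and Cd8a (-0.87, adjusted p = 0.376) did not pass. In both, anti-CD40 1 lay with the MEKi arrays: Cd3d read 7.66, 6.46, 6.65, 7.20 and 8.18 in MEKi 1 to 5, against 7.71, 9.40, 9.02 and 9.36 in anti-CD40 1 to 4. The mean log2 value of the T cell list was 4.23 to 5.02 in MEKi and 4.68 to 5.97 in anti-CD40. Ifng, the interferon that these cells secrete, was at 4.56 ± 0.49 in MEKi and 5.97 ± 0.92 in anti-CD40 (-1.41 ± 0.46, adjusted p = 0.142). Foxp3, the factor that defines regulatory T cells, was below 3 on all 9 arrays. Whether MEKi tumours held fewer such cells or less of these RNAs per cell cannot be told apart in whole tumour RNA.

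A further 3 lymphocyte genes were among the 12 largest decreases in MEKi. Gimap7, a GTPase of the family that supports lymphocyte survival, read 4.12, 3.76, 3.76, 3.84 and 4.56 in MEKi 1 to 5, against 5.26, 7.44, 6.77 and 7.08 in anti-CD40 1 to 4 (-2.63 ± 0.44, adjusted p = 0.0257). Slamf6, an adhesion receptor of T and NK cells found on progenitor-like exhausted CD8 cells, read 3.90, 3.43, 2.76, 3.54 and 4.79 in MEKi 1 to 5, against 6.20, 6.35, 6.39 and 6.32 in anti-CD40 1 to 4 (-2.63 ± 0.37, adjusted p = 0.0193; at least 5.99-fold lower). Klrb1b, an inhibitory C-type lectin receptor of NK cells, read 3.13, 4.48, 3.61, 4.55 and 4.19 in MEKi 1 to 5, against 7.30, 5.79, 7.30 and 5.89 in anti-CD40 1 to 4 (-2.58 ± 0.47, adjusted p = 0.0296). Control means differed among them: 4.09 ± 0.34 for Gimap7, at the MEKi level, but 6.63 ± 0.95 for Klrb1b, at the anti-CD40 level. For Slamf6 it was 5.24 ± 0.19, in between. None of 9 measured NK cell genes of the list was called (median -0.28). Without anti-CD40 2 none of the 7 called genes of the effector, T cell and lymphocyte groups passed (adjusted p 0.0525 to 0.106), and none passed with the series term (0.0919 to 0.173).

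**Figure D2:**
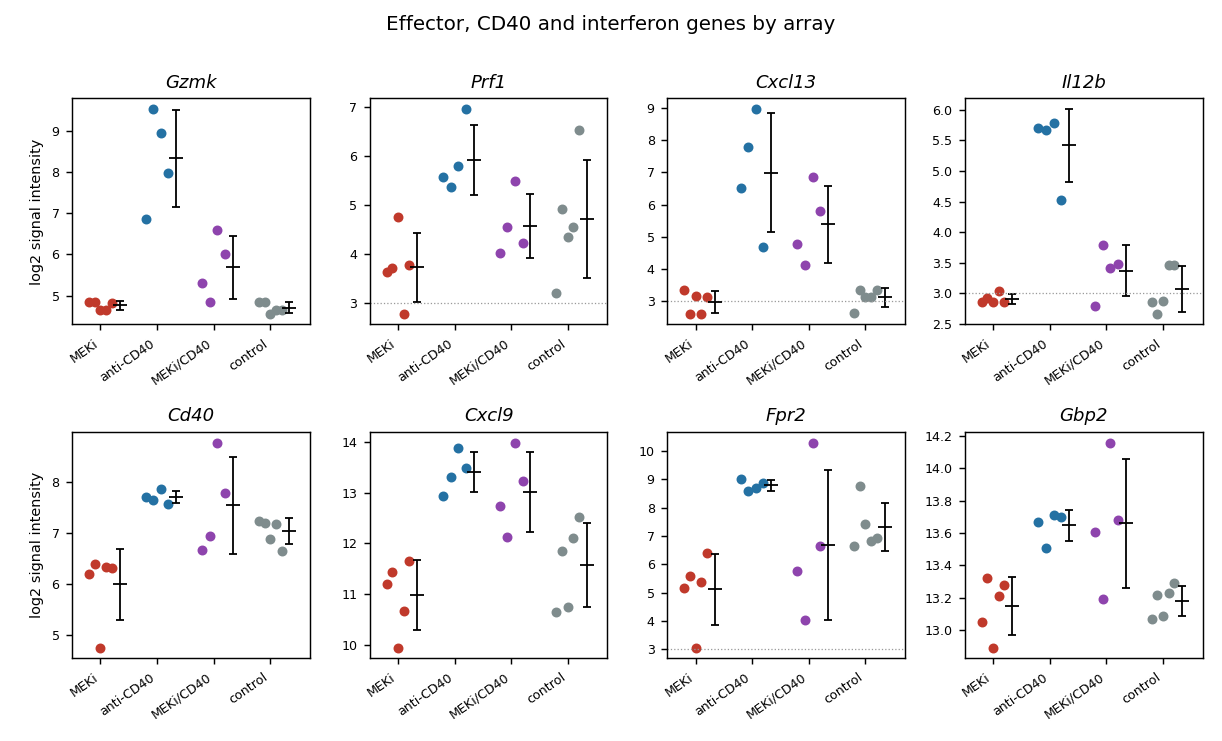
Log2 signal (vertical axes) of 8 genes on each array, in MEKi, anti-CD40, MEKi/CD40 and control tumours; points are arrays, bars the mean with its SD, and the dotted line the background level of 3. MEKi points lie below all anti-CD40 points in each panel, and for Gzmk, Cxcl13 and Il12b the control points lie at the MEKi level.

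Of the co-stimulation and CD40 genes, Il12b was called with the smallest adjusted p. Il12b, the p40 subunit of IL-12, read 2.85, 2.93, 2.85, 3.03 and 2.85 in MEKi 1 to 5, against 5.71, 5.67, 5.78 and 4.53 in anti-CD40 1 to 4. All MEKi values were at or near background and so were those of control (3.07 ± 0.38), while anti-CD40 4 was the lowest of its group. The Il12b difference was -2.52 ± 0.26, adjusted p = 0.0104, at least 5.34-fold lower in MEKi, and it remained called without any single array (highest adjusted p = 0.0414) but not with the series term (0.0573). Il12b was the only called gene of 18 measured co-stimulation and dendritic cell genes (5.56%, against 7.17% of all genes). Their median was 0.00, but 5 of them lay below 3 on all 9 arrays, where no difference could be measured. Of the 18 fitted differences 10 were above 0 and 8 below. The mean log2 value of the list was 4.84 to 5.13 in MEKi and 5.29 to 5.51 in anti-CD40, with control at 5.07 to 5.29. Itgax, the CD11c integrin, narrowly missed the threshold at -2.17 (adjusted p = 0.0517), and Cd86 was at -0.49 (adjusted p = 0.201). Cd40, the antibody's own target, read 6.19, 6.38, 4.74, 6.33 and 6.30 in MEKi 1 to 5, against 7.70, 7.65, 7.85 and 7.57 in anti-CD40 1 to 4 (-1.70 ± 0.35, adjusted p = 0.0403), and MEKi 3 was the low one.

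Among 17 measured CD40 and NF-kB genes 23.5% were called, against 7.17% of all genes and 12.6% of those at log2 5 or more on at least 4 arrays. Their median was -0.13, and 3 were lower in MEKi and 1 higher. Besides Cd40 these were Nfkbia, the inhibitor that NF-kB induces against itself (-0.35 ± 0.06, adjusted p = 0.0293), and Tnfaip2, an NF-kB target (-0.46 ± 0.10, adjusted p = 0.0462). Rela, the p65 subunit, was higher in MEKi (0.32 ± 0.05, adjusted p = 0.0241). Traf1 and Nfkb2, which CD40 signalling induces in B cells and dendritic cells, were not called, at 0.47 (adjusted p = 0.107) and 0.34 (adjusted p = 0.0992), both on the higher side in MEKi. Apart from Cd40 the called steps were small, at most 1.37-fold.

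The interferon-gamma response genes that passed were lower in MEKi. Cxcl9, the chemokine that this cytokine induces to draw CXCR3 T cells, read 11.21, 11.44, 9.95, 10.68 and 11.65 in MEKi 1 to 5, against 12.93, 13.31, 13.87 and 13.48 in anti-CD40 1 to 4 (-2.41 ± 0.38, adjusted p = 0.0219; 5.32-fold lower), with the control mean at 11.58 ± 0.83. Igtp (also Irgm3), an immunity-related GTPase, read 12.58, 12.67, 12.22, 12.49 and 12.55 in MEKi 1 to 5, against 12.97, 12.91, 13.11 and 13.20 in anti-CD40 1 to 4 (-0.55 ± 0.10, adjusted p = 0.0311). Gbp2, a guanylate-binding protein that acts on vacuoles of intracellular pathogens, read 13.05, 13.32, 12.89, 13.21 and 13.28 in MEKi 1 to 5, against 13.67, 13.51, 13.71 and 13.70 in anti-CD40 1 to 4 (-0.50 ± 0.10, adjusted p = 0.0348). The GTPases differed by 1.46-fold and 1.41-fold, yet without overlap. These 3, all lower, were called of 20 measured genes of the response (15%). Among genes at log2 5 or more on at least 4 arrays 12.6% were called, and 5.43% were called lower. The list median was -0.44, and 18 of the 20 fitted differences were below 0. Ido1, a tryptophan-degrading enzyme (-2.35, adjusted p = 0.0552), Irgm2 (-0.54, adjusted p = 0.0532) and Cd274, which encodes PD-L1 (-0.64, adjusted p = 0.111), did not pass, and Cxcl10 was at -0.09 (adjusted p = 0.992).

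The promoters of Igtp and Gbp2 are printed because their genes moved together and because interferon acts through short DNA elements there. Capitals mark matches on either strand to the ISRE core (TTTC, any 2 bases, TTTC, bound by IRF factors). Each stretch runs 250 bases before to 50 after the start, from RefSeq on GRCm38.p6, in the direction of the gene.
Igtp (chr11:58199306-58199605, plus strand): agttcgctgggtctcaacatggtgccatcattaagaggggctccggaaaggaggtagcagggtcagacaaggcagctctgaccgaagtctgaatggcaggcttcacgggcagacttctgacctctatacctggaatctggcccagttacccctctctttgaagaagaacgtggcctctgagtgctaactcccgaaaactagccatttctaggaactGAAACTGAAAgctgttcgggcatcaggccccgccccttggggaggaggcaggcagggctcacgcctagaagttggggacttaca
Gbp2 (chr3:142620413-142620712, plus strand): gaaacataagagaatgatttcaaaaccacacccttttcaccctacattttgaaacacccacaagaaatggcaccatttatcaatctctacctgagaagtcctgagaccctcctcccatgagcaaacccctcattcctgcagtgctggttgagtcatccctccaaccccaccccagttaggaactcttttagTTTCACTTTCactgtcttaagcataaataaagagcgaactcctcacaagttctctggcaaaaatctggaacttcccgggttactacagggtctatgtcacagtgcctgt
Igtp held an ISRE match on the opposite strand 34 bases before the start, and Gbp2 a match on its own strand 59 bases before it. Cxcl9, the other called gene of the list, held no match and is not printed. Of the 32851 promoters in the RefSeq table, 3.44% held the ISRE letters. They were found in 2 of the 3 called genes (66.7%) and in 6 of the 9 genes of the list that had a promoter in the table and were not called (66.7%). The match therefore did not set the called genes apart from the rest of the list.

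Of 14 measured genes of class I antigen processing 3 were called, lower in MEKi by small steps. This is 21.4%, against 12.6% of genes at log2 5 or more on at least 4 arrays. Of the 14 fitted differences 5 were above 0. Psmb8, a catalytic subunit of the immunoproteasome, read 13.75, 13.77, 13.71, 13.76 and 13.81 in MEKi 1 to 5, against 14.02, 13.89, 13.99 and 13.97 in anti-CD40 1 to 4 (-0.21 ± 0.03, adjusted p = 0.0201). Tap1, a chain of the peptide transporter of the endoplasmic reticulum, read 11, 11.04, 10.97, 11.03 and 11.25 in MEKi 1 to 5, against 11.49, 11.37, 11.49 and 11.54 in anti-CD40 1 to 4 (-0.41 ± 0.06, adjusted p = 0.021). Psmb9, a second immunoproteasome subunit, was at 11.87 ± 0.10 in MEKi and 12.24 ± 0.09 in anti-CD40 (-0.36 ± 0.06, adjusted p = 0.0279). In all 3 the groups did not overlap although the difference was at most 1.33-fold, and the control mean lay nearer to MEKi. The median of the 14 was -0.14. The class I heavy chain H2-K1 and its light chain B2m were at 0.02 and 0.02 (adjusted p = 0.901 and 0.789). Irf9, a transcription factor of the type I interferon response, was the only called gene of 22 type I interferon genes (-0.41 ± 0.07, adjusted p = 0.0274), and the median of that list was 0.11, on the other side of 0. None of 9 measured class II genes was called, although every fitted difference was below 0 and the median was -0.93. H2-DMa, which loads peptide onto class II, was at -1.64 (adjusted p = 0.0718) and H2-Aa at -1.25 (adjusted p = 0.182). Of the 12 called genes of the CD40, interferon and class I groups, Il12b and Psmb8 passed without anti-CD40 2 (adjusted p 0.0316 to 0.11 over the 12), and none passed with the series term (0.0573 to 0.217).

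Chemokines were split. Cxcl13, which draws CXCR5 B cells and follicular helper T cells, read 3.32, 2.58, 3.15, 2.59 and 3.12 in MEKi 1 to 5, against 6.53, 7.81, 8.99 and 4.66 in anti-CD40 1 to 4. Its MEKi values were at or near background and its anti-CD40 values spread widely, with anti-CD40 4 lowest. The Cxcl13 difference of -4.05 ± 0.81, adjusted p = 0.0376 was the largest decrease in MEKi, at least 14.7-fold, and control lay at 3.10 ± 0.30. Cxcl14, a chemokine of epithelial and stromal cells, read 5.41, 4.75, 3.88, 4.95 and 6.00 in MEKi 1 to 5, against 7.80, 7.68, 8.20 and 7.71 in anti-CD40 1 to 4 (-2.85 ± 0.40, adjusted p = 0.0197), but here control, at 8.23 ± 0.53, lay with anti-CD40. Cxcl16, the membrane-bound ligand of CXCR6, was at 10.16 ± 0.37 in MEKi and 11.26 ± 0.18 in anti-CD40 (-1.10 ± 0.20, adjusted p = 0.0292). Cx3cl1 (fractalkine), a membrane-bound ligand of CX3CR1 on monocytes and killer cells, went the other way (7.28 ± 0.47 in MEKi and 5.66 ± 0.37 in anti-CD40; 1.62 ± 0.28, adjusted p = 0.0268). Of 23 measured ligands 3 were lower and 1 higher (17.4% called), with a median of 0.01. Over all genes 7.17% were called, and 12.6% of those at log2 5 or more on at least 4 arrays. Cxcl12, a stromal chemokine, was at 2.12 (adjusted p = 0.0695) on the probe set that stands for the gene, and a dimmer probe set of Cxcl12 was called at 4.01 (adjusted p = 0.0195).

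The myeloid genes Fpr2 and Ly6i were among the 12 largest decreases in MEKi. Fpr2, a formyl peptide receptor of neutrophils and macrophages, read 5.17, 5.60, 3.04, 5.36 and 6.38 in MEKi 1 to 5, against 9.02, 8.60, 8.68 and 8.88 in anti-CD40 1 to 4 (-3.69 ± 0.62, adjusted p = 0.0257; 12.9-fold lower). The anti-CD40 arrays lay close together and MEKi 3 was the low one of its group. Ly6i, a Ly6 family gene raised on activated monocytes and macrophages, read 5.55, 5.52, 4.36, 5.90 and 5.85 in MEKi 1 to 5, against 7.24, 8.88, 8.49 and 7.93 in anti-CD40 1 to 4 (-2.70 ± 0.43, adjusted p = 0.0235), and control was at 4.79 ± 0.82, below the MEKi mean. Of 10 measured monocyte genes 1 was called (10%), Fn1, higher in MEKi, and the list median was 0.09. Of 14 general macrophage genes 3 were called (21.4%, against 12.6% of genes at log2 5 or more on at least 4 arrays). All 3 were lower in MEKi, and the list median was -0.61. They were Itgam, the CD11b integrin (-1.24 ± 0.26, adjusted p = 0.0423), Aif1, the cytoskeletal protein IBA1 (-1.32 ± 0.28, adjusted p = 0.0443), and Cd68, a lysosomal glycoprotein (-0.65 ± 0.14, adjusted p = 0.0482). Csf1r, the receptor that keeps macrophages alive, was at -0.57 (adjusted p = 0.208). Cfp (properdin), the positive regulator of the alternative complement pathway, read 8.24, 8.50, 7.89, 7.96 and 8.32 in MEKi 1 to 5, against 9.70, 9.29, 9.92 and 9.76 in anti-CD40 1 to 4 (-1.49 ± 0.17, adjusted p = 0.0131), and stayed called without any single array (highest adjusted p = 0.0387) but not with the series term (0.068).

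Markers of tissue-repair macrophages did not move as a block: 2 of 17 measured were higher in MEKi, none lower, and the median was 0.02. The share called was 11.8%, against 7.17% of all genes and 12.6% of those at log2 5 or more on at least 4 arrays. Cbr2, a carbonyl reductase of resident-type macrophages, read 4.97, 7.61, 6.88, 7.48 and 6.97 in MEKi 1 to 5, against 2.68, 2.57, 4.33 and 2.95 in anti-CD40 1 to 4 (3.65 ± 0.63, adjusted p = 0.0265; at least 10.9-fold). F13a1, the coagulation factor XIII A chain made by such macrophages, was at 9.97 ± 0.35 in MEKi and 8.51 ± 0.58 in anti-CD40 (1.46 ± 0.30, adjusted p = 0.0412). Mrc1 (CD206), by contrast, was at -1.14 (adjusted p = 0.0749) and Arg1 at -1.0 (adjusted p = 0.261). Retnla and Nos2 lay below 3 on all 9 arrays, and Cd163 was above 3 only in MEKi 2. Of the 12 called chemokine and myeloid genes only Cfp passed without anti-CD40 2 (adjusted p for all 12, 0.0303 to 0.137), and none passed with the series term (0.068 to 0.203).

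The cell division programme was lower in MEKi. Of 29 measured mitosis and G2/M genes 17 were called, all lower, against 3.09% of all genes called lower. All 29 fitted differences were below 0, with a median of -0.80 and a range of -1.39 to -0.46. Ube2c, the ubiquitin-conjugating enzyme of the anaphase-promoting complex, read 10.62, 11.25, 10.92, 11.13 and 11.09 in MEKi 1 to 5, against 11.92, 12.17, 12.29 and 12.09 in anti-CD40 1 to 4 (-1.12 ± 0.14, adjusted p = 0.0155; 2.17-fold lower). Aurka, the centrosome kinase, read 8.45, 9.07, 8.42, 8.96 and 8.84 in MEKi 1 to 5, against 9.66, 9.96, 10.07 and 9.96 in anti-CD40 1 to 4 (-1.16 ± 0.17, adjusted p = 0.0198). Bub1, a spindle checkpoint kinase, read 10.18, 10.69, 10.22, 10.57 and 10.64 in MEKi 1 to 5, against 11.73, 11.44, 11.61 and 11.21 in anti-CD40 1 to 4 (-1.04 ± 0.15, adjusted p = 0.0204). In these 3 genes the groups did not overlap and the control means, 12.12 ± 0.19, 9.93 ± 0.28 and 11.44 ± 0.26, lay at the anti-CD40 level. Anln, an actin-binding protein of the cleavage furrow (-0.65 ± 0.09, adjusted p = 0.0201), and Racgap1, which directs RhoA at that furrow (-0.87 ± 0.13, adjusted p = 0.021), followed. Mki67 did not pass (-0.46, adjusted p = 0.117), and its lowest anti-CD40 value, 10.93 in anti-CD40 1, lay within MEKi. The mean log2 value of the list was 9.54 to 10.09 in MEKi and 10.39 to 10.79 in anti-CD40. In MEKi/CD40 tumours it was 8.58 to 9.21, and in control tumours 10.42 to 10.88.

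Promoters of 3 of these genes are shown because the genes moved together and share elements through which the cell cycle times transcription. Capitals mark the CHR letters (TTTGAA, the cell cycle homology region bound by the DREAM and MuvB complexes) and CCAAT (bound by NF-Y), on either strand. Prc1, which bundles the microtubules of the spindle midzone, was chosen for its promoter after its values were seen (9.12 ± 0.26 in MEKi and 9.97 ± 0.11 in anti-CD40; -0.85 ± 0.14, adjusted p = 0.0231).
Aurka (chr2:172370521-172370820, minus strand): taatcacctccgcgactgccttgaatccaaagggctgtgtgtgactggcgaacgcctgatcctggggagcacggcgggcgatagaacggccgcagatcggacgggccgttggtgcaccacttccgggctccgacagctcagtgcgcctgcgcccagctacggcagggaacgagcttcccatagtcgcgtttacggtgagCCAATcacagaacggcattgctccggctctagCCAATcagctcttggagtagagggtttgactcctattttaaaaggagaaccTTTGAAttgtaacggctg
Prc1 (chr7:80294201-80294500, plus strand): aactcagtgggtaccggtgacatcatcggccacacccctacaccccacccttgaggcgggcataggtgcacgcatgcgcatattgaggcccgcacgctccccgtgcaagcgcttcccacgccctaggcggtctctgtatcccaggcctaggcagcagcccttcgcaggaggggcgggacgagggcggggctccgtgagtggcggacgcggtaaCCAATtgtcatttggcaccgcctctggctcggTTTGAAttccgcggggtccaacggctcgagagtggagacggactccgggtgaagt
Ube2c (chr2:164769679-164769978, plus strand): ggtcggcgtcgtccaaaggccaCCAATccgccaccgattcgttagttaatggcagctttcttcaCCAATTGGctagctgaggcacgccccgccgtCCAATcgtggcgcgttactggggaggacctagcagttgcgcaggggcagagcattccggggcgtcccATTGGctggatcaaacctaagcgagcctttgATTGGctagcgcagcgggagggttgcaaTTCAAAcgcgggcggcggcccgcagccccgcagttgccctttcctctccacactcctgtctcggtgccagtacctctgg
Prc1 showed the short arrangement, with CCAAT 37 bases and CHR 5 bases before the start. Aurka held 2 CCAAT boxes before the start and a CHR 33 bases after it, and Ube2c 6 CCAAT boxes, 2 of which overlap on opposite strands, and a CHR on the opposite strand 29 bases before the start. Of all 32851 promoters 17.9% held the CHR letters, 37.4% CCAAT and 6.95% both. Both were found in 9 of the 13 called mitosis genes with a promoter in the table (69.2%) and in 8 of the 11 that were not called (72.7%), so the letters did not set the called members apart from the rest of the list.

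Of 27 measured replication genes 4 were called (14.8%), near the 12.6% of genes at log2 5 or more on at least 4 arrays. All 4 were lower in MEKi, where 5.43% of such genes were called lower, and the list median was -0.50. Pcna, the sliding clamp of DNA polymerase, read 13.18, 13.33, 13.09, 13.40 and 13.25 in MEKi 1 to 5, against 13.65, 13.76, 13.81 and 13.77 in anti-CD40 1 to 4 (-0.50 ± 0.07, adjusted p = 0.0181). Rfc3, part of the clamp loader (-0.62 ± 0.11, adjusted p = 0.0257), Gins1, part of the replicative helicase (-1.0 ± 0.19, adjusted p = 0.0328), and Mcm4, a subunit of the same helicase (-0.43 ± 0.09, adjusted p = 0.0472), were the others. Ribosome biogenesis (0 of 22, median -0.20) and proteasome subunits (0 of 17, median -0.12) gave no calls. In the respiratory chain, Cox5a (-0.20 ± 0.03, adjusted p = 0.0262) and Cyc1 (-0.27 ± 0.05, adjusted p = 0.0363), parts of complexes IV and III, were lower by steps of at most 1.21-fold. These were 2 of 16 (12.5%), beside the same 12.6% of genes called in either direction and 5.43% called lower. Without anti-CD40 2 none of the 10 named division and replication genes passed (adjusted p 0.0568 to 0.127), and none passed with the series term (0.068 to 0.202).

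**Figure D3:**
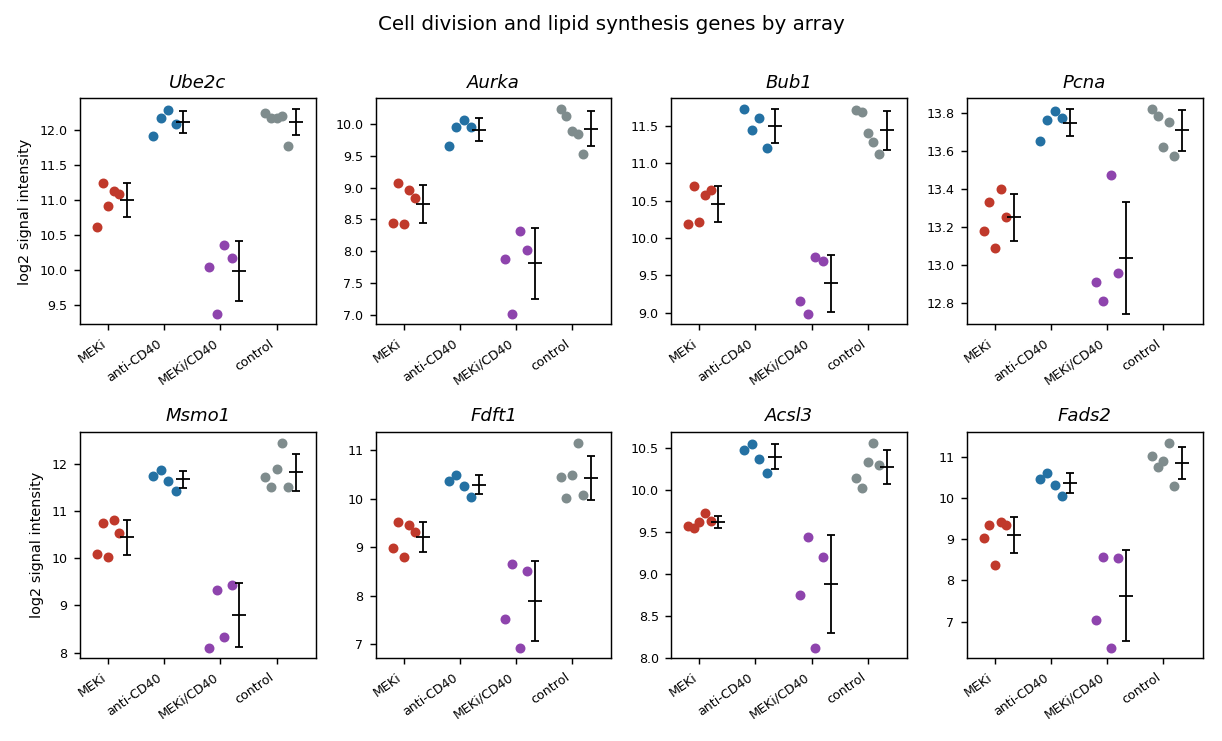
Log2 signal (vertical axes) of 4 cell division genes and 4 lipid synthesis genes on each array, in MEKi, anti-CD40, MEKi/CD40 and control tumours; points are arrays and bars the mean with its SD. In every panel the MEKi points lie below all anti-CD40 points, and the control mean lies nearer to anti-CD40.

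The sterol and fatty acid synthesis genes that passed were all lower in MEKi. These pathways are run by the SREBP factors, which are released when membrane sterol falls. Msmo1, a sterol demethylase of the late pathway, read 10.09, 10.75, 10.02, 10.82 and 10.53 in MEKi 1 to 5, against 11.75, 11.86, 11.64 and 11.43 in anti-CD40 1 to 4 (-1.23 ± 0.20, adjusted p = 0.0237). Fdft1 (squalene synthase), the first step given over to sterols, read 8.99, 9.51, 8.79, 9.45 and 9.31 in MEKi 1 to 5, against 10.36, 10.50, 10.26 and 10.04 in anti-CD40 1 to 4 (-1.08 ± 0.17, adjusted p = 0.0235). Insig1, the sterol sensor partner that holds SREBP back and is itself a target (-0.76 ± 0.13, adjusted p = 0.0262), Mvd of the mevalonate pathway (-0.98 ± 0.20, adjusted p = 0.0374) and Nsdhl of the late pathway (-0.90 ± 0.19, adjusted p = 0.0411) were the other called members. These were 5 of 19 measured (26.3%, against 12.6% of genes at log2 5 or more on at least 4 arrays), all lower. The list median was -0.76. Hmgcs1, the first committed enzyme of the mevalonate pathway, was at -0.72 (adjusted p = 0.0843) without overlap. Control means lay at the anti-CD40 level, 11.82 ± 0.39 for Msmo1 and 10.44 ± 0.46 for Fdft1.

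Acsl3, which activates fatty acids for lipid droplets, read 9.57, 9.55, 9.62, 9.73 and 9.63 in MEKi 1 to 5, against 10.48, 10.55, 10.37 and 10.21 in anti-CD40 1 to 4 (-0.78 ± 0.07, adjusted p = 0.00808), and was among the steadiest of the named genes, called without any single array (highest adjusted p = 0.0304) and with the series term (0.0357). Fads2, the delta-6 desaturase, read 9.02, 9.34, 8.38, 9.42 and 9.33 in MEKi 1 to 5, against 10.45, 10.61, 10.32 and 10.05 in anti-CD40 1 to 4 (-1.26 ± 0.24, adjusted p = 0.0315), with MEKi 3 lowest. Elovl5, an elongase of polyunsaturated fatty acids, differed little (-0.28 ± 0.05, adjusted p = 0.0296). Of 13 measured fatty acid genes 3 were called (23.1%), all lower, with a median of -0.28. Among genes at log2 5 or more on at least 4 arrays 12.6% were called. Of the 8 named lipid genes only Acsl3 passed without anti-CD40 2 (adjusted p 0.0303 to 0.12 over the 8), and likewise with the series term (0.0357 to 0.163).

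Extracellular matrix genes were among the largest increases in MEKi. Col1a1, the alpha-1 chain of fibrillar collagen I, read 13, 12.06, 12.72, 11.02 and 11.48 in MEKi 1 to 5, against 8.06, 8.74, 8.77 and 9.75 in anti-CD40 1 to 4 (3.23 ± 0.51, adjusted p = 0.0223; 9.36-fold higher), and Col1a2, its partner chain, read 14.90, 14.47, 14.86, 14.22 and 14.20 in MEKi 1 to 5, against 11.13, 12, 12.69 and 12.94 in anti-CD40 1 to 4 (2.34 ± 0.39, adjusted p = 0.0241). MEKi 4 and 5 were the lower of the MEKi arrays in both, and still above every anti-CD40 array. Control, at 8.54 ± 0.83 and 11.75 ± 0.70, lay with anti-CD40. Sparc, a collagen-binding glycoprotein (0.65 ± 0.11, adjusted p = 0.0241), Col5a2, and the small proteoglycans Ogn (2.31 ± 0.39, adjusted p = 0.0262) and Lum (2.83 ± 0.57, adjusted p = 0.0379), which space collagen fibrils, were the other called members, 6 of 17 measured, all higher, with a median of 0.43. The mean log2 value of this list was 12.32 to 13.04 in MEKi and 11.54 to 12.24 in anti-CD40. It was 13.39 to 13.59 in MEKi/CD40 and 11.32 to 11.79 in control.

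Further matrix genes outside that list were among the 12 largest increases. Ccdc80, a secreted matrix protein of fibroblasts and adipose stroma, read 10.21, 10.11, 9.96, 9.18 and 9.49 in MEKi 1 to 5, against 4.21, 5.09, 8.39 and 5.03 in anti-CD40 1 to 4 (4.11 ± 0.82, adjusted p = 0.0373; 17.3-fold). Prelp, a basement membrane proteoglycan, read 8.49, 8.05, 7.89, 6.14 and 6.40 in MEKi 1 to 5, against 3.05, 3.01, 4.69 and 3.08 in anti-CD40 1 to 4 (3.94 ± 0.63, adjusted p = 0.0232; 15.3-fold). Fbn2, a microfibril protein of developing tissue, read 9.72, 8.99, 9.33, 8.07 and 8.36 in MEKi 1 to 5, against 4.47, 4.84, 6.24 and 5.37 in anti-CD40 1 to 4 (3.66 ± 0.47, adjusted p = 0.0165; 12.7-fold). Omd, a keratan sulfate proteoglycan of bone, was at 9.08 ± 1.08 in MEKi and 5.71 ± 0.89 in anti-CD40 (3.36 ± 0.66, adjusted p = 0.0352), and Col11a1, a minor fibril collagen of cartilage and activated fibroblasts, at 7.24 ± 1.01 in MEKi and 3.82 ± 1.06 in anti-CD40 (3.42 ± 0.68, adjusted p = 0.0362; at least 10.2-fold). In Ccdc80, Prelp and Fbn2 the highest anti-CD40 value was that of anti-CD40 3.

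Remodelling enzymes and receptors gave smaller steps. Of matrix proteases and inhibitors 11.8% were called, against 12.6% of genes at log2 5 or more on at least 4 arrays. Timp2, an inhibitor of metalloproteinases, read 14.61, 14.47, 14.52, 14.60 and 14.53 in MEKi 1 to 5, against 13.88, 13.95, 13.71 and 14.11 in anti-CD40 1 to 4 (0.63 ± 0.08, adjusted p = 0.0148), and Adamts5, an aggrecan-cleaving protease, was at 8.73 ± 0.47 in MEKi and 7.34 ± 0.14 in anti-CD40 (1.39 ± 0.24, adjusted p = 0.0266), 2 of 17 measured. Mfap5, a microfibril protein and the only called gene of 13 universal fibroblast markers, was at 8.75 ± 0.58 in MEKi and 5.83 ± 1.10 in anti-CD40 (2.92 ± 0.55, adjusted p = 0.0324). The median of those 13 was 1.90 although 1 passed. Fn1 (fibronectin) was higher by 0.49 ± 0.08, adjusted p = 0.0252. In the TGF-beta list (1 higher and 1 lower of 14) the receptor Tgfbr2 was higher (0.63 ± 0.14, adjusted p = 0.0463) and Tgfbi, a secreted protein that TGF-beta induces, was lower (-0.51 ± 0.08, adjusted p = 0.0247).

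Genes of fat cells, which lie next to a flank tumour, were read beside the matrix. The mean log2 value of 9 adipocyte genes was 3.93 to 5.54 in MEKi and 3.22 to 6.25 in anti-CD40, none was called, and the highest array was anti-CD40 3. Adiponectin (Adipoq) read 5.26, 7.19, 2.52, 8.18 and 7.47 in MEKi 1 to 5, against 2.25, 2.75, 8.39 and 2.32 in anti-CD40 1 to 4. With the adipocyte value as a covariate the difference was 3.39 for Col1a1 (adjusted p = 0.0234), 3.46 for Ccdc80 (0.0277) and 3.79 for Prelp (0.0311). Without the 2 arrays of highest adipocyte value, anti-CD40 3 and MEKi 4, it was 3.46 for Col1a1 (0.0822), 5.17 for Ccdc80 (0.0232) and 4.66 for Prelp (0.0586). Without anti-CD40 2 none of the 16 named matrix genes passed (adjusted p 0.0531 to 0.129), and none passed with the series term (0.0573 to 0.138).

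**Figure D4:**
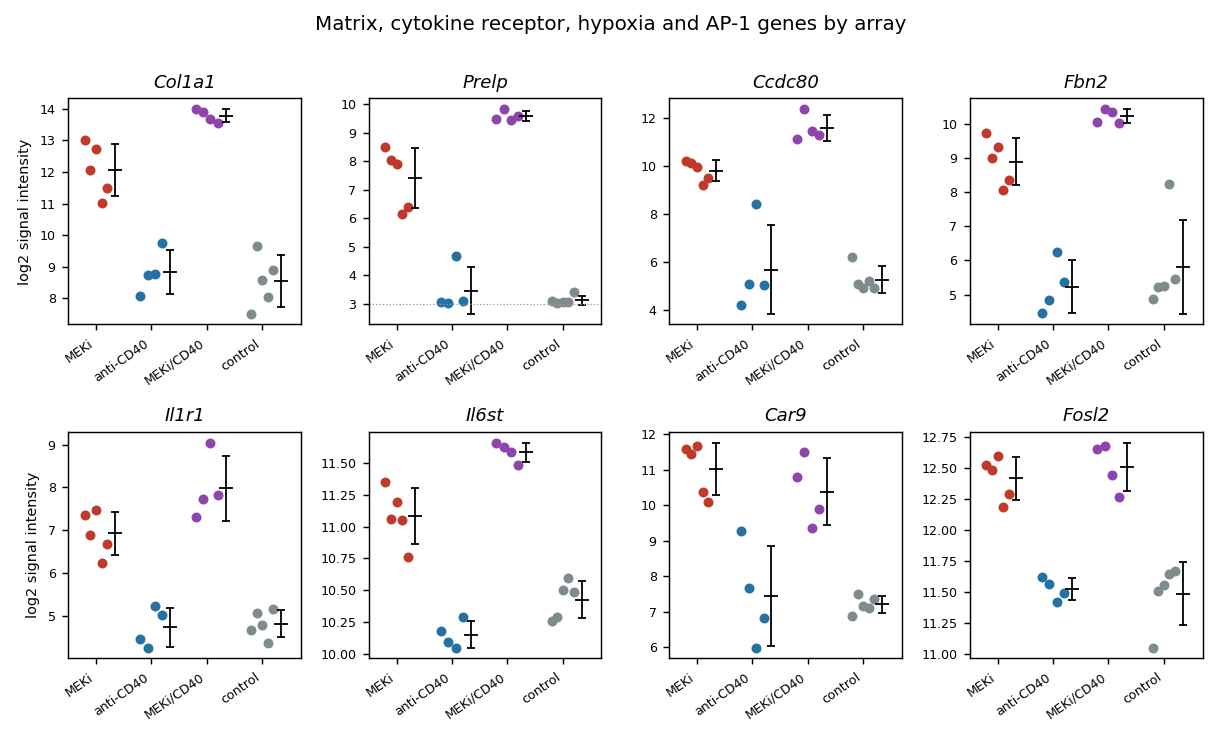
Log2 signal (vertical axes) of matrix, cytokine receptor, hypoxia and AP-1 genes on each array, in MEKi, anti-CD40, MEKi/CD40 and control tumours; points are arrays, bars the mean with its SD, and the dotted line the background level of 3. In each panel all MEKi points lie above all anti-CD40 points.

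A set of 3 receptors of the IL-6 and IL-1 families was higher in MEKi. Il6st (gp130), the shared signalling chain of IL-6 family receptors, read 11.35, 11.06, 11.19, 11.05 and 10.76 in MEKi 1 to 5, against 10.18, 10.10, 10.05 and 10.29 in anti-CD40 1 to 4 (0.93 ± 0.12, adjusted p = 0.0161). Il1r1, the signalling receptor of IL-1, read 7.36, 6.90, 7.48, 6.24 and 6.67 in MEKi 1 to 5, against 4.46, 4.25, 5.22 and 5.01 in anti-CD40 1 to 4 (2.19 ± 0.32, adjusted p = 0.0201; 4.58-fold). Osmr, which pairs with gp130 for oncostatin M, was at 10.90 ± 0.42 in MEKi and 9.63 ± 0.31 in anti-CD40 (1.27 ± 0.25, adjusted p = 0.0352). These receptors were the 3 called of 18 measured inflammation genes (16.7%, against 7.17% of all genes), whose median was 0.34. Cd55 (decay-accelerating factor), which protects cells from complement, read 5.74, 5.93, 6.23, 5.27 and 5.44 in MEKi 1 to 5, against 2.75, 2.41, 2.47 and 3.01 in anti-CD40 1 to 4 (3.06 ± 0.22, adjusted p = 0.00458; at least 6.59-fold). The anti-CD40 values of Cd55 were at or next to background, as was the control mean (2.64 ± 0.22).

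Of 19 measured hypoxia and glycolysis genes 3 were higher in MEKi (15.8%, against 12.6% of genes at log2 5 or more on at least 4 arrays), with a median of 0.60. Car9, the carbonic anhydrase that marks hypoxic tumour, read 11.58, 11.43, 11.65, 10.36 and 10.09 in MEKi 1 to 5, against 9.27, 7.66, 5.98 and 6.81 in anti-CD40 1 to 4 (3.59 ± 0.70, adjusted p = 0.0354; 12.1-fold). Anti-CD40 1 was the high one of its group and the groups did not overlap. Hk1, which phosphorylates glucose, read 11.67, 11.46, 11.52, 11.47 and 11.54 in MEKi 1 to 5, against 11.06, 10.75, 10.65 and 10.68 in anti-CD40 1 to 4 (0.75 ± 0.09, adjusted p = 0.0149), and Egln3, a prolyl hydroxylase that HIF induces, was at 11.65 ± 0.41 in MEKi and 10.53 ± 0.17 in anti-CD40 (1.13 ± 0.21, adjusted p = 0.033).

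Output genes of ERK, the kinase that MEK activates, were called at a share near that of all genes. Of 21 measured 2 were called (9.52%, against 7.17% of all genes), both higher in MEKi, with a median of 0.08. Dusp6, the ERK phosphatase that ERK induces, read 12.28, 12.53, 11.97, 12.73 and 12.54 in MEKi 1 to 5, against 12.28, 12.55, 12.55 and 12.41 in anti-CD40 1 to 4 (-0.04 ± 0.16, adjusted p = 1), and the groups overlapped. Dusp4 (0.09), Spry2 (0.62), Spry4 (0.08), Ccnd1 (0.02), Myc (0.07), Fosl1 (0.39) and Egr1 (0.23) did not pass either. The ETS factors Etv5 (-0.58, adjusted p = 0.096) and Etv4 (-0.30, adjusted p = 0.119) lay lower in MEKi without overlap and missed the threshold. Etv5 read 10.22, 9.96, 9.44, 10.14 and 10.19 in MEKi 1 to 5, against 10.64, 10.65, 10.59 and 10.42 in anti-CD40 1 to 4, and a dimmer Etv5 probe set was called lower at -0.88 (adjusted p = 0.026). The 2 called genes were Phlda1, a pleckstrin homology protein (0.95 ± 0.19, adjusted p = 0.0357), and Ier3, an early response gene that blocks apoptosis (1.58 ± 0.33, adjusted p = 0.0422). Fosl2, an AP-1 subunit, read 12.53, 12.49, 12.60, 12.19 and 12.29 in MEKi 1 to 5, against 11.62, 11.57, 11.42 and 11.49 in anti-CD40 1 to 4 (0.90 ± 0.09, adjusted p = 0.0107), and remained called without any single array (highest adjusted p = 0.0414) and with the series term (0.0425). It was the only called gene of 15 immediate early and AP-1 genes (median 0.28). Nrg1 (neuregulin), the ligand of ERBB3, was at 6.61 ± 0.33 in MEKi and 4.96 ± 0.55 in anti-CD40 (1.65 ± 0.29, adjusted p = 0.0265), 1 of 11 measured EGF family genes. Egfr (1.06, adjusted p = 0.0542) and its feedback inhibitor Errfi1 (1.01, adjusted p = 0.0591) lay higher in MEKi without overlap and did not pass, although a second Egfr probe set did at 0.95 (adjusted p = 0.0223). Of the 10 called cytokine receptor, hypoxia, AP-1, ERK and EGF family genes, only Fosl2 passed without anti-CD40 2 (adjusted p 0.0414 to 0.123 over the 10), and likewise with the series term (0.0425 to 0.195).

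The smallest adjusted p among the named genes belonged to a transporter. Slc16a9, a monocarboxylate transporter linked to carnitine efflux, read 7.53, 7.25, 7.30, 6.81 and 7.67 in MEKi 1 to 5, against 4.16, 3.94, 3.98 and 4.31 in anti-CD40 1 to 4 (3.21 ± 0.18, adjusted p = 0.00324; 9.28-fold). The SD was small in both groups and control, at 3.81 ± 0.74, lay with anti-CD40. Masp1, a protease of the lectin complement pathway, read 10.97, 10.09, 10.88, 9.39 and 9.10 in MEKi 1 to 5, against 5.69, 6.70, 4.72 and 7.33 in anti-CD40 1 to 4 (3.98 ± 0.65, adjusted p = 0.0237; 15.7-fold). Serpinb1a, an inhibitor of neutrophil proteases (8.60 ± 0.57 in MEKi and 5.28 ± 1.16 in anti-CD40; 3.32 ± 0.57, adjusted p = 0.0265), and Adgrd1, an adhesion G protein-coupled receptor (6.36 ± 0.94 in MEKi and 2.94 ± 0.62 in anti-CD40; 3.42 ± 0.54, adjusted p = 0.0223), completed the 12 largest increases. On the lower side Nptx1, a neuronal pentraxin, read 6.95, 8.71, 7.98, 8.42 and 8.34 in MEKi 1 to 5, against 11.10, 10.33, 10.51 and 10.23 in anti-CD40 1 to 4 (-2.46 ± 0.38, adjusted p = 0.0211), and its mean in MEKi/CD40 was 3.98 ± 0.95. Slc16a9 and Cd55 remained called without any single array (highest adjusted p = 0.0157 and 0.0238) and with the series term (0.0108 and 0.0241).

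Vessel, epithelial and skin genes gave isolated calls. Cldn5, the tight junction protein of endothelium, read 4.37, 4.58, 4.81, 4.72 and 4.79 in MEKi 1 to 5, against 6.03, 6.82, 7.50 and 7.64 in anti-CD40 1 to 4 (-2.34 ± 0.33, adjusted p = 0.0193), while Vcam1, the leukocyte adhesion receptor (0.53 ± 0.07, adjusted p = 0.019), and Plvap, of endothelial diaphragms (0.64 ± 0.13, adjusted p = 0.0376), were higher in MEKi. The 16 endothelial genes had a median of -0.03, and 18.8% of them were called, against 7.17% of all genes. Of 16 epithelial genes 13 were below 3 on all 9 arrays, Krt18 among them, so the defining markers of epithelium were not seen in these carcinoma tumours. Spint1, an inhibitor of matriptase and hepsin, was the only called member and read 5.75, 5.94, 4.51, 6.12 and 6.42 in MEKi 1 to 5, against 7.56, 8.00, 8.42 and 8.15 in anti-CD40 1 to 4 (-2.28 ± 0.39, adjusted p = 0.0265). Trp63, the master factor of basal epidermis, read 7.26, 6.66, 6.94, 5.66 and 5.88 in MEKi 1 to 5, against 2.27, 2.50, 2.33 and 4.41 in anti-CD40 1 to 4 (3.60 ± 0.56, adjusted p = 0.0216; at least 8.74-fold), and the mean of 15 epidermal genes was 3.22 to 4.11 in MEKi and 2.85 to 3.10 in anti-CD40, 5 of them below 3 on all 9 arrays and no other called. Ttn, a giant protein of muscle, was at 6.41 ± 0.51 in MEKi and 4.44 ± 0.69 in anti-CD40 (1.97 ± 0.39, adjusted p = 0.0355), with 13 of 16 muscle genes below 3 on all 9 arrays. The part of overlying skin in the Trp63 difference was not tested. Bag3, a co-chaperone of the heat shock response (0.58 ± 0.12, adjusted p = 0.0371), was the only called gene of 12 measured heat shock genes (8.33%). The general factor Tbp (-0.32 ± 0.06, adjusted p = 0.0355) was the only called gene of 5 measured housekeeping genes (20%). Among genes at log2 5 or more on at least 4 arrays 12.6% were called. Of the 16 called genes of this and the preceding paragraph, with Cd55, Cox5a and Cyc1, Slc16a9 and Cd55 alone passed without anti-CD40 2 (adjusted p 0.013 to 0.112) and with the series term (0.0108 to 0.199).

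**Figure D5:**
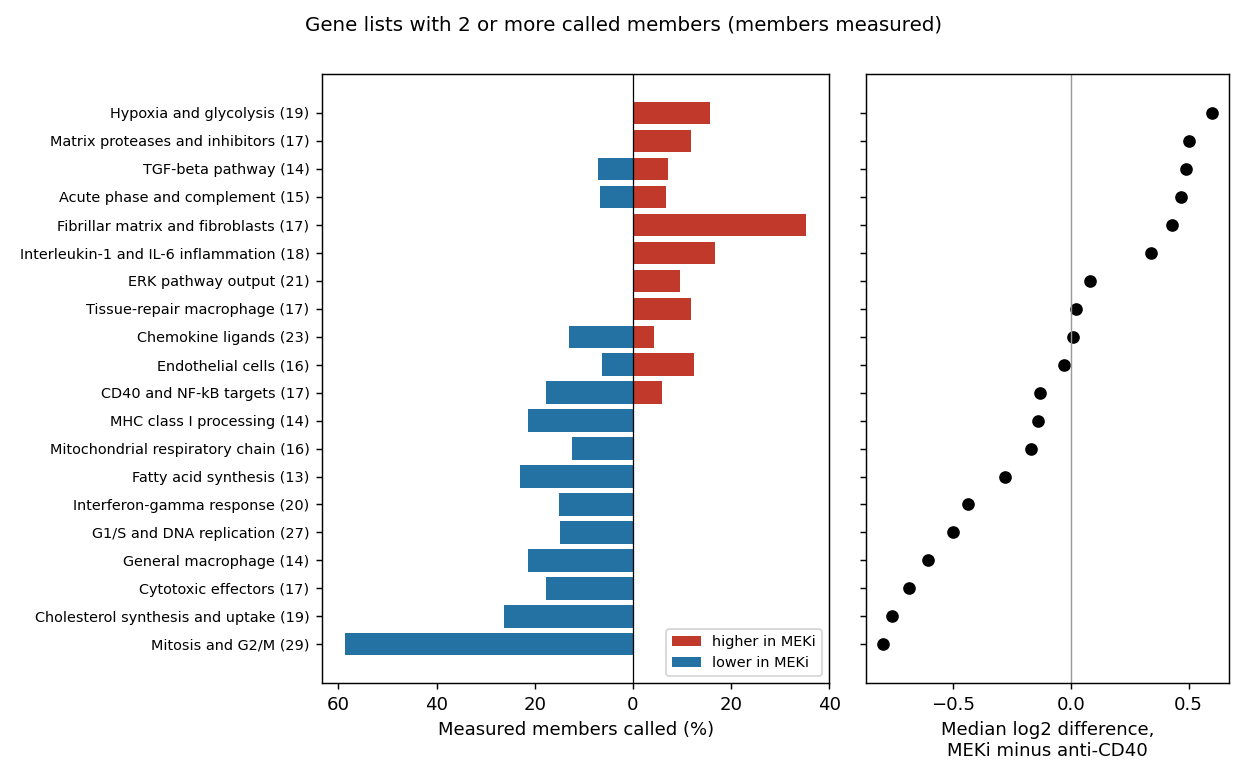
Gene lists with 2 or more called members: left, the percentage of measured members called, with those lower in MEKi drawn to the left of 0 and those higher to the right; right, the median log2 difference of all measured members. The mitosis list has the largest share lower (17 of 29) and the fibrillar matrix list the largest share higher (6 of 17).

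In all, 45 gene lists held 683 measured genes. The largest shares of called members were those of mitosis (58.6%), fibrillar matrix (35.3%), cholesterol synthesis (26.3%) and CD40 and NF-kB (23.5%). Over all genes the share was 7.17%, and 12.6% among genes at log2 5 or more on at least 4 arrays. Nearer to these lay, among others, hypoxia (15.8%), the interferon-gamma response (15%), DNA replication (14.8%), TGF-beta (14.3%) and the respiratory chain (12.5%). Immune checkpoints (0 of 11), B cells and plasma cells (0 of 12), neutrophils (0 of 15), regulatory T cells (0 of 8) and microglia-like macrophages (0 of 12) held no called gene. Part of these genes could not be measured. Below 3 on all 9 arrays lay 9 of the 12 B cell, 7 of the 15 neutrophil and 4 of the 8 regulatory T cell genes. The same held for 3 of the 11 checkpoint and 2 of the 12 microglia-like genes.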

How the data were processed

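Whole-tumour RNA was hybridised to Affymetrix 3′ expression arrays (Mouse430_2), 1 per mouse. The authors deposited log2 signal per probe set, made with RMA per the submitters' notes (version not given in the sources used here). RMA as a method corrects background, equalises array distributions and summarises probes, so array totals carry no information and low signals pile up near the floor. Groups came from the array titles. Of 45101 probe sets 64 controls were left out. Of the others, 34945 had 1 gene symbol, 932 several and 9160 none, and 34741 of the single-symbol sets matched RefSeq (GRCm38.p6) by Entrez ID. The 9 arrays were fitted in limma 3.58.1 (R 4.3.3, statmod 1.5.0), checked on simulated data. For each gene 1 probe set stood for the gene. "At least" folds set values below 3 to 3.

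The comparison, the 45 gene lists (746 genes, 683 measured) and the naming rule were chosen with earlier results of these data known. The rule took the 12 largest called changes per direction without overlap after values below 3 were raised to 3. It also took up to 5 members per list by unadjusted p, called or not, and fixed genes. It gave 264 genes, part of which are named in the text. Prc1, Adipoq and the Y-linked genes were added after their values were seen. The alternatives were other normalizations, filters, covariates, sample sets, the title number series and leaving out each array. Promoters came from RefSeq (GRCm38.p6).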

Additional observations from a re-analysis of the deposited data

Results flagged for a closer look

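In 19 of 253 groups of values 1 array lay far from the others of its group by Dixon's test, which chance does in about 1 in 20 groups. In MEKi 3, Cd40 was 4.74 (others 6.19 to 6.38), Ly6i 4.36 (5.52 to 5.90), Eif2s3y 5.90 (7.45 to 7.71) and Spry4 6.90 (6.62 to 6.66). In MEKi 4, Col11a1 was 5.49 (7.29 to 7.91) and Plvap 9.63 (9.96 to 10.00). In MEKi 5, Ifng was 5.42 (4.27 to 4.48) and Tap1 11.25 (10.97 to 11.04). Cbr2 was 4.97 in MEKi 1 (6.88 to 7.61) and Cd163 3.13 in MEKi 2 (2.16 to 2.34).

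In anti-CD40 1, Cxcl10 was 13.39 (others 13.85 to 13.91), Cd68 11.29 (11.56 to 11.60), Mki67 10.93 (11.47 to 11.54) and Spry2 9.71 (8.32 to 8.55). In anti-CD40 4, Il12b was 4.53 (5.67 to 5.78), Nfkbia 13.61 (13.74 to 13.76) and Trp63 4.41 (2.27 to 2.50). Prelp was 4.69 in anti-CD40 3 (3.01 to 3.08) and Adamts5 7.13 in anti-CD40 2 (7.40 to 7.44).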

How the results depend on the processing

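Against the 2292 probe sets called, the count was 4946 of the 18584 probe sets at log2 5 or more on at least 4 arrays (26.6%; 13.6% higher and 13% lower), 66 with trended and robust eBayes, 153 with the title number series as a term and 179 among title numbers below 7800. All 18 arrays in 1 model gave 2720, values raised to 3 gave 2107, quantile normalization 2492, cyclic loess 2595 and the adipocyte covariate 3401. Leaving out 1 array gave 197 (without anti-CD40 2) to 1753 (without MEKi 4). Among alternatives added after seeing the data, the count was 84 without the 2 arrays of highest adipocyte value, 5175 with the filter and trended, robust eBayes, 1939 with the filter and the series term, and with the filter when 1 array was left out 4744 (anti-CD40 1), 2945 (anti-CD40 2), 2993 (anti-CD40 3), 3998 (anti-CD40 4), 3310 (MEKi 1), 4020 (MEKi 2), 4210 (MEKi 3), 4815 (MEKi 4) and 4334 (MEKi 5). Of the 92 called genes named here, 84 lost their call with trended and robust eBayes over all probe sets. Without the 2 arrays of highest adipocyte value 86 lost it. With the filter and trended, robust eBayes, none of those tested lost it. With the replicate number as a block 3 probe sets were called, and all 92 genes lost their call. Same-numbered arrays of the groups correlated at -0.088, 0.020, -0.366 and -0.379 in their deviations, and differently numbered ones at -0.238 to 0.376. So few values cannot decide whether the numbers pair animals, and the labels do not say so. In the fit above the filter more list members were called. Either group alone can meet the filter of 4 arrays, so some members entered through the group where they are high. How many did so in each list was not counted, and the 26.6% above is a share of probe sets, not of genes. The counts are therefore given as description only. The counts there were 29 of 29 lower for mitosis, 20 of 26 lower for DNA replication, 12 of 18 lower for cholesterol synthesis, 10 of 18 lower for the interferon-gamma response, 6 of 14 lower for class I and 4 of 7 lower for class II. They were 5 of 8 lower for T cells, 7 lower and 1 higher of 14 for macrophages, 4 lower and 4 higher of 15 for CD40 and NF-kB, 1 lower and 4 higher of 18 for ERK output, 9 of 19 higher for hypoxia and 8 of 17 higher for fibrillar matrix. Averaging all probe sets of a gene gave 1865 of 18193 genes.

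Among 131 named genes the reversals were all in genes that were not called. Cxcl10 (-0.09) was 0.01 with the series term, with or without the filter, and among title numbers below 7800, and -0.21 to 0.02 when 1 array was left out (highest without MEKi 3). Dusp6 (-0.04) was -0.12 to 0.07 when 1 array was left out (highest without MEKi 3). Dusp4 (0.09) was -0.14 under the 3 series settings and -0.01 (without MEKi 3) to 0.16 when 1 array was left out. Ccnd1 (0.02) was -0.05 with the adipocyte covariate and -0.03 without anti-CD40 4 or without MEKi 4. Myc (0.07) was -0.01 (without anti-CD40 4) to 0.16 when 1 array was left out, and Egr1 (0.23) was -0.29 under the 3 series settings. The cause of these changes was not tested. The number of arrays limits the precision, and 49.2% of probe sets lay below 3 on all 9 arrays, where no difference could be measured.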

Other observations

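The Y chromosome genes Kdm5d and Eif2s3y, looked up after their values were seen, gave lower values in MEKi. According to the paper's methods the mice of the experiments were male, and the cause of the difference was not tested. Kdm5d, a histone demethylase, read 3.94, 3.54, 3.15, 4.23 and 4.08 in MEKi 1 to 5, against 4.75, 5.38, 6.01 and 5.31 in anti-CD40 1 to 4 (-1.57 ± 0.31, adjusted p = 0.0357, limma). Eif2s3y, a translation initiation factor subunit, read 7.45, 7.54, 5.90, 7.46 and 7.71 in MEKi 1 to 5, against 8.29, 8.51, 8.65 and 8.57 in anti-CD40 1 to 4 (-1.29 ± 0.37, adjusted p = 0.0994), without overlap but short of the threshold. The MEKi values of both were lower than all anti-CD40 values and above 3.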
